A study of Mus musculus with 6 samples.

Results

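miR-21a is a microRNA whose precursor hairpin gives a mature RNA from each of its arms, and every entry of the count table whose name starts with mmu-miR-21a- was taken, which gave 2 of 495 mature miRNAs, mmu-miR-21a-5p and mmu-miR-21a-3p. Small RNA was sequenced from kidney tissue of male balb/c mice in 2 groups, with 3 libraries in the chronic intermittent hypoxia (CIH) group and 3 in the Control group. In CIH the inspired oxygen fell to 6% and was brought back to 21%, each within 60 s, for 30 cycles per hour, 8 hours per day, over 8 weeks. The Control group stayed in the same kind of chamber with room air for the whole experiment. No age is given in the sources used here, and neither group carries an engineered allele by the labels. The sources do not say that each library came from its own mouse, so the tests measure the spread between these samples. miR-21a is known as a miRNA that rises in injured kidney. In these libraries neither arm passed the test between CIH and Control, so it is called by its name alone.

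A miRNA is cut from a hairpin RNA, and usually one arm is loaded into an Argonaute protein while the other, the passenger strand, is degraded. The loaded strand finds its target mRNAs mainly through its seed, bases 2 to 8 from the 5′ end, and lowers their translation and stability. miR-21 is abundant in many tissues, is raised by signals through AP-1, STAT3 and TGF-β, and is known to repress Pdcd4, Spry1 and Ppara. In mouse kidney it is best known from ischaemic injury and from fibrosis after obstruction.

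The mature sequences are shown because the 5p arm shares its seed with 1 other miRNA of the table and the 3p arm with none. They are the RefSeq sequences on GRCm38.p6, written 5′ to 3′ with the seed in capitals, followed by the relatives mmu-miR-21b and mmu-miR-21c.
mmu-miR-21a-5p: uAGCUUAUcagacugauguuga
mmu-miR-21a-3p: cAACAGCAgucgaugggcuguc
mmu-miR-21b: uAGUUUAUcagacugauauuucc
mmu-miR-21c: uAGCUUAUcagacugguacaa
Of the 495 miRNAs of the table, 413 matched a RefSeq mature sequence by name, and among these only mmu-miR-21c had the seed AGCUUAU of the 5p arm. No other matched miRNA had the seed AACAGCA of the 3p arm. The mmu-miR-21c sequence equals the 5p arm over its first 15 bases and differs later by A16G, G18A, U19C, U20A and G21A. Positions are counted from 1 at the 5′ end, with the base of mmu-miR-21a-5p first. mmu-miR-21b differs by C4U within the seed and by G18A, G21U and A22C further on.

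On GRCm38 the Mir21a hairpin lies on the minus strand of chromosome 11 from 86584067 to 86584158. The 5p arm takes 86584120 to 86584141 and the 3p arm 86584082 to 86584103. In GENCODE M21 the hairpin lies inside exon 12, the last of 12 exons of a Vmp1 transcript, on the same strand and in its untranslated part. Vmp1 codes for a membrane protein of the endoplasmic reticulum that acts in autophagy. The hairpin is 92 bases long and each arm has 22 bases. In the fold of lowest predicted free energy, -46.2 kcal/mol, 19 bases of the 5p arm paired with bases of the 3p arm. Mir21b lies on chromosome 3 from 29636744 to 29636851, within Egfem1 and outside its annotated exons. Mir21c lies on chromosome 8 from 128278148 to 128278225, where no other gene is annotated.

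The 5p arm, the strand known to act on targets, was among the most abundant miRNAs of the kidney in both groups. It had 54372, 48216 and 61258 CPM in Control replicates 1, 2 and 3, where CPM are counts per 1000000 counts of the library, scaled by TMM. It had 59774, 63072 and 53088 CPM in CIH replicates 1, 2 and 3. The groups overlapped, since CIH replicate 3 lay below Control replicates 1 and 3, and the lowest library was Control replicate 2. The Control mean was 54615 ± 6524 CPM and the CIH mean 58645 ± 5087 CPM (SD, n = 3 each). The log2 fold change was 0.10 (standard error 0.12) with an approximate 95% interval of -0.16 to 0.36, and the quasi-likelihood test of edgeR gave an adjusted p of 0.89. As a fold this interval runs from 0.898 to 1.28. Over all miRNAs tested, 0 of 495, or 0%, passed an adjusted p of 0.05. At an unadjusted p under 0.05 edgeR called 39 of 495, or 7.88%, DESeq2 called 29 and limma 35, and neither arm was among those called by edgeR. By the p from edgeR the 5p arm stood at position 219 and the 3p arm at 110 of 495. The absolute log2 change was larger than that of the 5p arm in 311 miRNAs. Without Control replicate 2 the log2 fold change of the 5p arm was 0.021, and without Control replicate 3 it was 0.19.

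**Figure D1:**
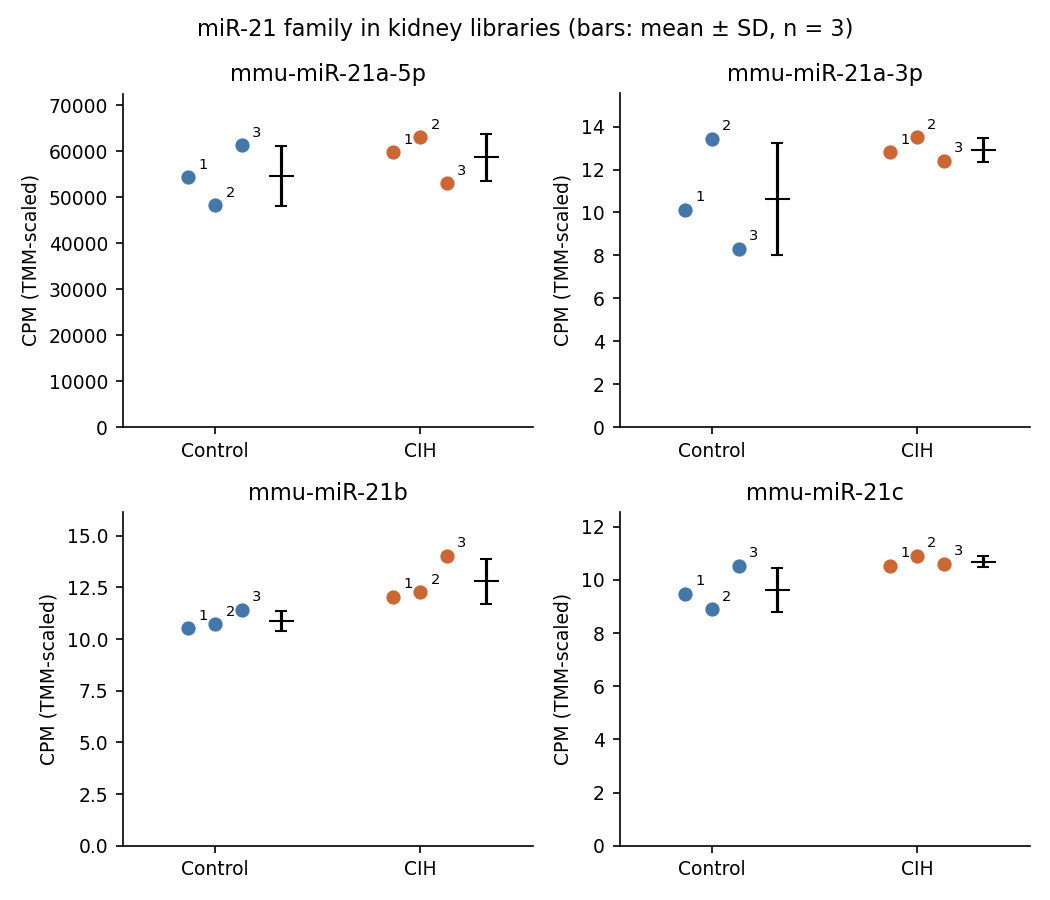
TMM-scaled CPM (vertical axes from 0) of mmu-miR-21a-5p, mmu-miR-21a-3p, mmu-miR-21b and mmu-miR-21c in the 3 Control and 3 CIH libraries, with replicate numbers beside the points and mean ± SD as bars. The groups overlap for both arms of miR-21a, and Control replicate 2 is the lowest library for the 5p arm and the highest of its group for the 3p arm.

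As a share of all counts, with no other scaling, the 5p arm took 5.41%, 4.89% and 5.69% of the Control libraries. It took 6.25%, 6.21% and 5.50% of the CIH libraries. CIH replicates 1 and 2 were above every Control library, and CIH replicate 3 was below Control replicate 3. The means were 5.33% ± 0.406 (SD, n = 3) in Control and 5.99% ± 0.420 (SD, n = 3) in CIH, a difference of 0.659 percentage points (exact two-sided permutation test, p = 0.2). The smallest p that 3 libraries against 3 allow is 0.1. Each share rests on 265663 to 476307 counts, and the widest 95% Wilson interval ran from 5.49% to 5.52% in CIH replicate 3 and from 4.87% to 4.91% in Control replicate 2. These intervals cover counting error only. On the TMM-scaled CPM the spread between libraries was 11.9% of the mean in Control and 8.67% in CIH. Counting error was far below this, at most 0.194%.

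In order of abundance the 5p arm was in position 5 in each Control library and in position 4 in each CIH library. The change of place was with mmu-miR-99a-5p, a miRNA made from a let-7 cluster and known to target Mtor. Its level was 58609, 54558 and 65049 CPM in the Control libraries and 47638, 54338 and 51591 CPM in the CIH libraries. The log2 ratio of the 5p arm to mmu-miR-99a-5p was -0.12 ± 0.048 (SD, n = 3) in Control and 0.19 ± 0.14 (SD, n = 3) in CIH, and the groups did not overlap (exact two-sided permutation test, p = 0.1). The nearest miRNAs above were mmu-miR-30a-5p of tubular epithelium and mmu-miR-192-5p, another tubular miRNA, and the 5p arm was below both in every library. Its log2 ratio to mmu-miR-30a-5p was -0.76 ± 0.18 in Control and -0.41 ± 0.18 in CIH, and that to mmu-miR-192-5p was -0.39 ± 0.013 and -0.25 ± 0.053 (SD, n = 3, exact permutation p = 0.1 for both). Against endothelial mmu-miR-126a-3p, which was below the 5p arm in 6 of 6 libraries, the log2 ratio was 0.036 ± 0.037 in Control and 0.14 ± 0.078 in CIH (SD, n = 3, exact permutation p = 0.2). Adjusted over these 4 comparisons the exact permutation p was 0.13, 0.13, 0.13 and 0.20. Set against each of the other 494 miRNAs in the same way, the ratio of the 5p arm did not overlap and was higher in CIH for 9.72% of them.

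**Figure D2:**
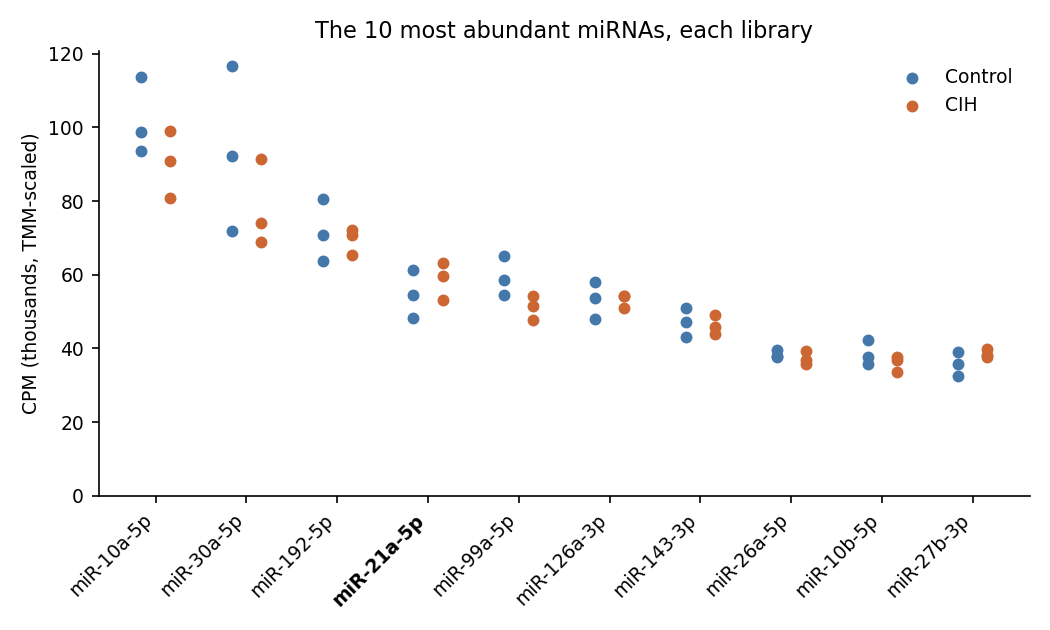
TMM-scaled CPM in units of 1000 of the 10 most abundant miRNAs, 1 point per library, with Control and CIH side by side. mmu-miR-21a-5p is in position 4 by the mean, and its CIH points lie within or just above its Control points.

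The 3p arm, the passenger strand, was scarce, and its measured difference was within the spread of the Control libraries. It had 78, 74 and 56 counts in Control replicates 1, 2 and 3 and 102, 99 and 76 counts in CIH. On the TMM-scaled axis the Control libraries were at 10.1, 13.4 and 8.31 CPM, and the CIH libraries at 12.8, 13.5 and 12.4 CPM. Control replicates 1 and 3 were below every CIH library, while Control replicate 2 lay among the CIH libraries, so the groups overlapped. The Control mean was 10.6 ± 2.60 CPM and the CIH mean 12.9 ± 0.558 CPM (SD, n = 3 each). The log2 fold change was 0.29 (standard error 0.20) with an approximate 95% interval of -0.16 to 0.74, or a fold from 0.894 to 1.67, and edgeR gave an adjusted p of 0.81. Counting error alone at these counts is 9.90% to 13.4% of the value. The spread over libraries was 24.4% of the mean in Control and 4.33% in CIH, so the CIH libraries lay closer together than their counting error. Without Control replicate 2 the log2 fold change was 0.48 (unadjusted p = 0.033, adjusted p = 0.34 from edgeR), and without Control replicate 3 it was 0.14 (adjusted p = 0.93). The 3p arm was in position 291 of 495 by mean CPM, next to mmu-miR-704 at 12.1 CPM and mmu-miR-21b at 11.8 CPM above it, and mmu-miR-3073b-3p at 11.6 CPM and mmu-miR-17-3p at 11.4 CPM below. The 3p arm was the higher in only 3 or 4 libraries against each of them, so this order is within the spread of the libraries. An absolute log2 change larger than that of the 3p arm was found in 126 of 495 miRNAs.

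The balance of the arms does not depend on how libraries are scaled, because both counts come from the same library. In parts per 1000000 counts of both arms (ppm), the 3p arm made up 186, 278 and 136 in Control replicates 1, 2 and 3. It made up 214, 214 and 234 ppm in CIH replicates 1, 2 and 3. The 3 CIH values lay between the highest and the lowest Control value. The means were 200 ± 72.4 (SD, n = 3) in Control and 221 ± 11.3 (SD, n = 3) in CIH, a difference of 20.5 ppm (exact two-sided permutation test, p = 0.7). The Wilson intervals of Control replicate 2, 222 to 350, and Control replicate 3, 104 to 176, did not overlap each other. The 6 libraries together held 2360358 counts of the 5p arm and 485 of the 3p arm, or 4867 counts of the 5p arm for each of the 3p arm. Without Control replicate 3 the difference turned to -11.7 ppm, and without Control replicate 2 it was 59.7 ppm.

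**Figure D3:**
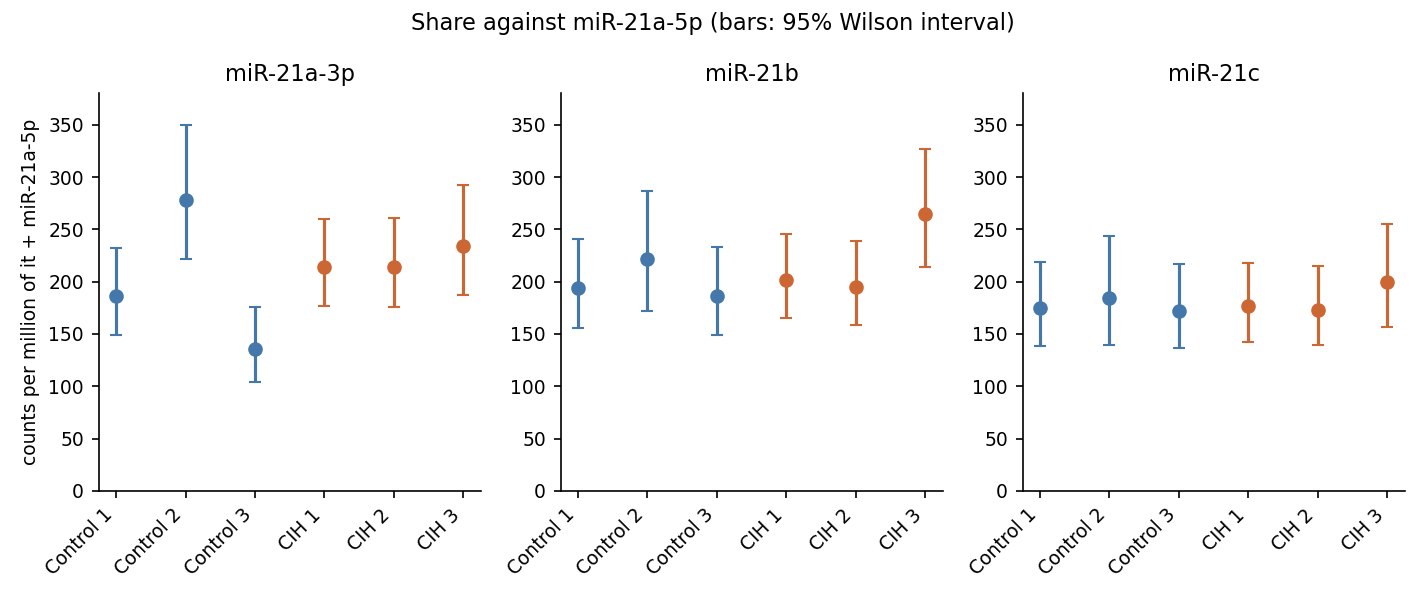
Counts of mmu-miR-21a-3p, mmu-miR-21b and mmu-miR-21c per 1000000 counts of each together with mmu-miR-21a-5p (ppm) (vertical axes from 0), by library, with 95% Wilson intervals as bars. For the 3p arm Control replicate 2 is at 278 and Control replicate 3 at 136, with the CIH libraries between them, while for mmu-miR-21c all 6 intervals overlap.

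Arms were paired by identical name, so hairpins whose arms carry different names, such as a locus number on a single arm, are left out. Among the hairpins paired in this way, miR-21a was one of the most one-sided. Its less abundant arm made up 0.0205% of the counts of both arms, against a median of 6.45% over 137 such hairpins, and only miR-101a and miR-99a had a lower share. With a major arm of at least 1000000 counts there were 11 hairpins, with shares from 0.0124% to 3.49% and a median of 0.355%. Among these miR-21a was in position 2 from the lowest, just below miR-192 at 0.0206%. The smallest total of any entry in the table was 32 counts, so hairpins with a scarcer passenger strand do not appear in this comparison. For the same reason a hairpin with few counts cannot show a share as low as that of miR-21a. The log2 ratio of the 3p to the 5p arm changed by 0.20 from Control to CIH in miR-21a. The median absolute change over the 137 hairpins was 0.17, and 62 of them, or 45.3%, changed by more.

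**Figure D4:**
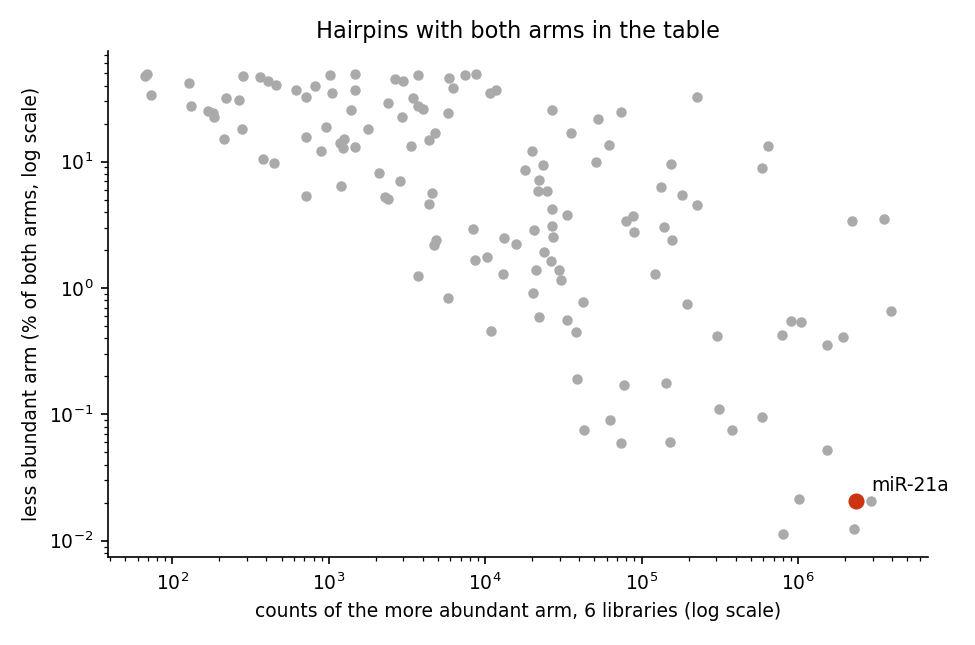
Share of the less abundant arm (percent of both arms, log scale) against the counts of the more abundant arm over the 6 libraries (log scale). The points are the 137 hairpins with both arms in the table under matching names. miR-21a, in red, lies at the lower right, with 2360358 counts of its major arm and 0.0205% in its minor arm.

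The relatives of the 5p arm were as scarce as the passenger strand. For mmu-miR-21b the Control libraries gave 10.5, 10.7 and 11.4 CPM and the CIH libraries 12.05, 12.3 and 14.0 CPM. For mmu-miR-21c, with the seed of the 5p arm, they gave 9.48, 8.89 and 10.535 CPM in Control replicates and 10.542, 10.9 and 10.6 CPM in CIH replicates. For both, every CIH library was above every Control library, although for mmu-miR-21c CIH replicate 1 and Control replicate 3 were almost equal. Over all miRNAs, the groups did not overlap in 12.5%, and in 5.25% they did not overlap with CIH higher. By share of all counts without TMM both relatives were also separated, as were 8.89% of all miRNAs with CIH higher. Neither passed the test, with log2 fold changes of 0.23 for mmu-miR-21b (standard error 0.17, adjusted p = 0.81 from edgeR) and 0.15 for mmu-miR-21c (standard error 0.17, adjusted p = 0.89 from edgeR).

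Set against the 5p arm, neither relative differed between the groups beyond the spread of the libraries. mmu-miR-21c had 174, 184 and 172 ppm of its counts and those of mmu-miR-21a-5p in Control, and 176, 173 and 199.9 in CIH, and all 6 Wilson intervals overlapped. mmu-miR-21b had 194, 222 and 186 ppm in Control and 202, 195 and 265 in CIH, and the highest lower bound, 214 in CIH replicate 3, was below the lowest upper bound, 233 in Control replicate 3. The difference between the group means was 6.20 ppm for mmu-miR-21c (exact two-sided permutation test, p = 0.6) and 19.6 ppm for mmu-miR-21b (exact two-sided permutation test, p = 0.5). How reads that match several of these sequences were assigned is not stated in the sources used here. Whether reads of the 5p arm with base changes are counted as mmu-miR-21b or mmu-miR-21c was not tested, so both entries are uncertain.

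The miRNAs most like each arm over the 6 libraries were found by the root mean square difference of log2(CPM + 0.5), centred on the mean of each miRNA, among 301 others with a mean of at least 10 CPM. For the 5p arm these were mmu-miR-140-3p (0.052), mmu-miR-1839-3p (0.052), mmu-miR-126a-3p (0.072), mmu-miR-129-5p (0.074) and mmu-miR-103-3p (0.075), against a standard deviation of 0.15 for the 5p arm itself. mmu-miR-140-3p, known from cartilage, averaged 3592 CPM over the Control and 3829 CPM over the CIH libraries. For the 3p arm they were mmu-miR-874-3p (0.070), mmu-miR-421-3p (0.094), mmu-miR-148b-3p (0.095), mmu-miR-196b-5p (0.095) and mmu-let-7j (0.10), against a standard deviation of 0.27. The lists of nearest patterns shared no miRNA between the arms, and how often lists this short would share a member was not tested.

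Other miRNAs known from kidney injury, taken as a list without miR-21a, ranged in log2 fold change from -0.32 to 1.30. Of 20 listed, 18 were measured, and 11 had a positive and 7 a negative log2 fold change, against 48.3% positive over all 495. The median was 0.044 on this list against -0.003 over all 495. At an unadjusted p under 0.05, 1 was higher and 0 were lower, and 0 passed an adjusted p of 0.05. Over all miRNAs 2.83% were higher and 5.05% lower at the unadjusted threshold. The one that was higher, mmu-miR-212-3p of the activity-induced miR-132 transcript, averaged 1.47 CPM in Control and 3.49 CPM in CIH, a log2 difference of 1.30 (standard error 0.48, edgeR adjusted p = 0.58). With 1 library left out, mmu-miR-212-3p ran from 0.81 to 1.68. Its call was lost without Control replicate 1, at 0.81, and without CIH replicate 2, at 0.87. The next by p were the hypoxia-induced mmu-miR-210-3p at a log2 fold change of -0.32, the p53-induced mmu-miR-34a-5p at 0.18 and mmu-miR-132-3p at 0.41. With 1 library left out, mmu-miR-210-3p was at -0.20 without CIH replicate 1, mmu-miR-34a-5p was at 0.10 without Control replicate 1 or without CIH replicate 2, and mmu-miR-132-3p was at -0.0091 without CIH replicate 2. mmu-miR-21a-5p, at 0.10, lay within the range of this list.

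Of 14 miRNAs listed as profibrotic, several of them also on the kidney injury list, 11 were measured, with a median log2 fold change of -0.027. Only mmu-miR-215-5p, a relative of mmu-miR-192-5p, was higher at an unadjusted p under 0.05, and 0 were lower, against 2.83% and 5.05% over all miRNAs. Its log2 fold change was 1.53 (adjusted p = 0.58 from edgeR) and 0.60 without CIH replicate 2, where the call was lost. mmu-miR-192-5p itself was at -0.047. All 15 miRNAs listed as antifibrotic were measured, 4 with a positive and 11 with a negative log2 fold change and a median of -0.077. mmu-miR-29b-3p, which represses collagen genes, was lower at an unadjusted p under 0.05, at -0.24 on the log2 scale (standard error 0.098, edgeR adjusted p = 0.58), and 0 were higher. This call was lost without TMM, with every entry as its own row, with the replicate block and without any 1 of the CIH libraries, with values from -0.26 to -0.18. mmu-miR-30e-5p, mmu-miR-141-3p and mmu-miR-30b-5p, of epithelium, were at -0.20, -0.69 and -0.23. With 1 library left out, mmu-miR-141-3p ran from -0.96 without Control replicate 1 to -0.036 without Control replicate 3. It was called at an unadjusted p under 0.05 by edgeR without Control replicate 1 or without Control replicate 2.

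miR-21a is made in many cell types of the kidney, so its 5p arm was set against markers of each. In bulk tissue, fewer cells of a type and less RNA per cell cannot be told apart. The 7 leukocyte markers summed to 3834 to 3986 CPM in Control and 3823 to 4896 CPM in CIH. No member was called at an unadjusted p under 0.05, against 7.88% of all miRNAs. With so few markers, a lack of calls does not show that the class was unchanged. Most of the leukocyte sum was mmu-miR-146a-5p, at 2736 to 2991 CPM in Control and 2783 to 3842 CPM in CIH. The log2 ratio of the 5p arm to the sum was 3.80 in both groups (SD 0.15 in each, n = 3, exact permutation p = 1). The 5 mesenchyme and smooth muscle markers, the 2 endothelium markers and the 3 red cell markers also had overlapping sums and overlapping ratios (exact permutation p = 0.2, 0.2 and 1). Of these markers, mmu-miR-486a-5p of red cells was higher at an unadjusted p under 0.05, at 0.38 on the log2 scale (0.32 without CIH replicate 3, where that call was lost), and none passed an adjusted p of 0.05 with edgeR. Over all miRNAs 2.83% were higher at the unadjusted threshold. Against the 5 kidney tubule markers, which summed to 243050 to 318896 CPM in Control and 230470 to 263481 CPM in CIH, the log2 ratio of the 5p arm was -2.29, -2.33 and -2.38 in Control. It was -1.95, -2.06 and -2.22 in CIH, so every CIH library was above every Control library. The means were -2.33 ± 0.046 (SD, n = 3) and -2.08 ± 0.14 (SD, n = 3), a difference of 0.26 (exact two-sided permutation test, p = 0.1, or 0.33 adjusted over the 5 marker classes). The same ratio had groups that did not overlap, with CIH higher, in 11.4% of 490 other-than-tubule miRNAs. Its median change over them was 0.15, and 157 of them changed by more than the 5p arm. Most of the tubule sum was mmu-miR-10a-5p, mmu-miR-30a-5p and mmu-miR-192-5p, at means of 101915, 93548 and 71752 CPM in Control. In Control mmu-miR-194-5p averaged 8548 CPM and mmu-miR-204-5p 59.6 CPM. Marker by marker, the ratio was separated for mmu-miR-30a-5p and mmu-miR-192-5p and overlapped for mmu-miR-10a-5p, mmu-miR-194-5p and mmu-miR-204-5p. The change in this ratio ran from 0.0056 for mmu-miR-194-5p to 0.43 for mmu-miR-204-5p. No tubule marker was called at an unadjusted p under 0.05, against 7.88% of all miRNAs, and the part of tubule content in this ratio was not tested. No marker was at 0 in any library, the lowest being mmu-miR-223-3p of myeloid cells at 15.4 CPM in CIH replicate 2.

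**Figure D5:**
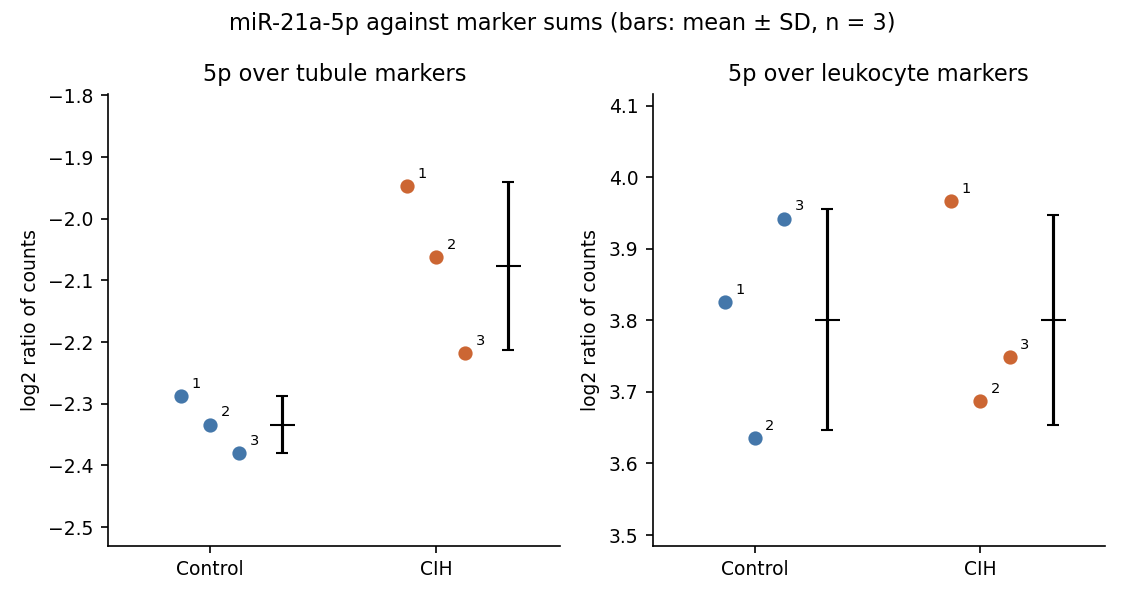
Log2 ratio of mmu-miR-21a-5p counts to the summed counts of 5 kidney tubule markers and of 7 leukocyte markers, by library, with replicate numbers beside the points and mean ± SD as bars (axes do not start at 0). The CIH libraries lie above the Control libraries for the tubule sum, from -2.22 to -1.95 against -2.38 to -2.29. For the leukocyte sum the groups overlap, and CIH replicate 1 is the highest library.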

How the data were processed

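Kidney small RNA from 3 Control and 3 CIH samples was analysed, grouped by the titles in the labels. The authors deposited raw read counts per mature miRNA. The submitters' processing notes list cutadapt, an adapter trimmer, and Bowtie, an aligner. Versions, genome build and miRBase release: not given in the sources used here. Of 584 entries for 495 miRNAs, 44 miRNAs had several, of which the one with most counts was used. Library totals were then 5431797 to 7741499 counts, and no 2 libraries had the same counts.

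CIH was compared with Control over all 495 miRNAs with counts in at least 3 libraries, using edgeR 4.0.16 (quasi-likelihood test, TMM, condition only) in R 4.3.3 with Benjamini-Hochberg adjustment. Intervals are approximate, from the log2 fold change and the square root of F. Shares and ratios used exact permutation tests in scipy 1.17.1. The hairpin was folded with RNAfold 2.7.2. The script was tested on simulated counts. Alternatives covered DESeq2 1.42.0, limma 3.58.1, normalization, pseudocounts of 0.5 and 1, filters at 1 and 10 CPM, precursor entries, a replicate block and each library left out. The ratios to marker sums and to neighbours in abundance were chosen after the data were examined. miRNAs other than the members were named by a rule: relatives by name or seed, the 2 next above and the 2 next below each arm in abundance, the 5 nearest patterns, and up to 4 of each list with the smallest p. mmu-miR-101a, mmu-miR-99a as a hairpin, mmu-miR-146a-5p and mmu-miR-223-3p were named after their values were seen. The members and lists were chosen with earlier results of these data known.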

Additional observations from a re-analysis of the deposited data

How the results depend on the processing

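The log2 fold changes of mmu-miR-21a-5p and mmu-miR-21a-3p stayed positive and short of an adjusted p of 0.05 under all 16 alternatives, and no miRNA passed that threshold under any of them. With 1 library left out the 5p arm ran from 0.021 to 0.19 and the 3p arm from 0.14 to 0.48. Under the other alternatives they ran from 0.070 to 0.17 and from 0.26 to 0.34. Adjusted p-values ran from 0.72 to 0.999 for the 5p arm and from 0.34 to 0.99 for the 3p arm. The share of the 5p arm was higher in CIH under all 9 alternatives, by 0.439 to 0.901 percentage points with 1 library left out. The share of the 3p arm in both arms differed by -11.7 to 59.7 ppm with 1 library left out, and it was lower in CIH only without Control replicate 3. mmu-miR-192-5p was at 0.020 without TMM and ran from -0.12 to 0.040 with 1 library left out, and mmu-miR-132-3p ran from -0.0091, without CIH replicate 2, to 0.62. The cause was not tested. The ratio of the 5p arm to tubule markers differed by 0.19 to 0.33 with 1 library left out. At an unadjusted p under 0.05, 39 miRNAs were called with all libraries. Leaving 1 out gave 67 (Control replicate 2), 32 (CIH replicate 3), 31 (Control replicate 3), 26 (Control replicate 1), 22 (CIH replicate 1) and 21 (CIH replicate 2). Deviations from the group mean in libraries with equal replicate numbers had correlations of -0.042, -0.033 and 0.034 across miRNAs. With unequal numbers the correlations ran from -0.051 to 0.078. With few libraries this cannot show whether the samples were handled in pairs. With a replicate block the log2 fold changes were 0.11 and 0.30 (adjusted p = 0.95 and 0.85 from edgeR). For the share differences of 0.659 and 20.5, flipping the signs of the paired differences gave an exact p of 0.5 and 0.75. With 3 pairs this test cannot reach 0.1, the smallest p of the unpaired test. At 56 to 102 counts per library, depth limits what can be said of the 3p arm.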
